A study of Mus musculus with 15 samples.

Results

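Ephrins, Slits and netrins are axon guidance ligands, and the genes of these ligands and of their receptors were followed here in mouse Purkinje cells (PCs), the output neurons of the cerebellar cortex, during the first weeks after birth. Members were the protein-coding genes whose GENCODE M21 symbol is *Epha* or *Ephb* with a number, begins with *Efna*, *Efnb*, *Robo*, *Ntn* or *Unc5*, is *Slit* with 1 digit, or is *Dcc*. By this rule 41 of the 38561 genes in the count tables were members. Of these, 16 are ligands (5 ephrin-A, 3 ephrin-B, 3 Slit and 5 netrin genes) and 23 are receptors (9 EphA, 5 EphB, 4 Robo and 5 netrin receptor genes). The remaining 2, *Unc50* and *Unc5cl*, share only the first letters of their names with the Unc5 receptors and are kept apart from ligands and receptors below. No part of the rule used a measured value, but members were chosen with earlier results of these data known.

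PC bodies were cut by laser from cerebellar sections of male C57/BL6 mice (the labels spell the strain C56/BL6) at 5 ages, namely postnatal day 0 (P0), P4, P8, P14 and P21. Each age had 3 biological replicates, which makes 15 samples. The labels give no treatment and no engineered allele for any group, and age is what was compared. Single PC bodies were captured from P4 onwards, whereas at P0 clusters of PCs were cut, and this difference in sampling cannot be told apart from age at P0. RNA was copied to cDNA with a low-input kit that does not mark the strand, sequenced, and counted per gene. Between 3409371 and 7814951 reads per sample were counted on genes. The share of reads outside genes or ambiguous was 25.3% to 31.0% in the P0 samples, 21.5% to 22.5% at P4 and 22.8% to 24.7% at P8. It was lowest, at 18.2% to 20.7%, at P14 and P21, and its part in the falls below was not tested.

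An ephrin is held at the surface of a cell, the ephrin-As by a lipid anchor and the ephrin-Bs by a membrane-spanning segment, and it binds Eph receptor tyrosine kinases on a neighbouring cell, with signals passing into both cells. Slits are secreted and act through Robo receptors, mostly as repellents. Netrins are secreted or lipid-anchored, and netrin-1 attracts axons through DCC and repels them through receptors of the UNC5 family. In the cerebellum, ephrins and Eph receptors are known for banded expression across the cortex around birth, and mice that lack *Unc5c* have misplaced cerebellar cells.

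The 6 PC markers examined (*Calb1*, *Itpr1*, *Pcp2*, *Pcp4*, *Car8* and *Ppp1r17*) all rose with age, and their summed level went from 5340 ± 737 CPM (counts after scaling for library size, SD, n = 3) at P0 to 42941 ± 5287 at P21. RNA of other cells was present as well. Markers of granule cell progenitors (4 genes, of which *Atoh1* was at 0 in all samples) summed to 254.8 to 290.7 CPM in the P0 samples and to 0.212 to 3.04 CPM in those of P21, and 2 of the 3 tested fell. Those 2, *Mki67* and *Top2a*, mark cycling cells of any type, and *Barhl1* had means of 1.13 to 5.13 CPM with no call. The 5 vascular markers summed to 92.3 to 235.8 CPM at P0 and 48.4 to 70.3 CPM at P21, with 2 falling, and the 8 Bergmann glia and astrocyte markers stood at 4629 CPM on average at P0, 8994 at P8 and 3647 at P21, with 2 falling and 3 rising. Oligodendrocyte markers went from 22.4 to 569.4 CPM, and all 5 rose. The other lists held 0 to 25.5 CPM (microglia), 3.65 to 169.0 (meninges), 8.68 to 119.2 (oligodendrocyte progenitors) and 279.6 to 1029 (granule neurons). Of the 4 granule neuron markers, *Gabra6* rose (means of 0.0641 CPM at P0, 102.8 at P14 and 63.5 at P21) and *Reln* fell (139.7 at P0, 40.5 at P21). The list of basket, stellate and Golgi cells went from 170.4 to 5279 CPM. The 2 of its 6 genes that rose, *Gad1* and *Pvalb*, are also PC genes and stood at 1083 and 4125 CPM at P21, while the mean of each of the other 4 was at most 63.3 CPM at any age and none was called. The part that any of these other cells has in the results below was not tested. In such samples, fewer cells of a type and less RNA per cell cannot be told apart.

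Part of the guidance genes went down in the weeks after birth, among them the ephrin-B ligand *Efnb3*, EphB receptors, *Robo2* and the netrin receptor *Unc5c*. No member was called as rising with age in the main edgeR fit. Of the 41 members, 33 passed the filter on low counts, and 10 of them fell with age (adjusted p below 0.05 for the slope on postnatal day), or 30.3% of those tested. Among all 14293 genes tested, 14.1% fell and 12.1% rose. The 10 were the ligands *Efna2* and *Efnb3* and the receptors *Epha10*, *Ephb1*, *Ephb2*, *Ephb3*, *Robo1*, *Robo2*, *Unc5a* and *Unc5c*. No member rose in this fit, and the only 1 with a positive slope at an unadjusted p below 0.05 was *Unc50*. In other fits *Ntng1* was called as rising with limma-voom and *Unc50* with a replicate block. The median slope of the 33 was -0.0468 log2 units per day, against -0.00767 over all genes. Without the P0 samples 7 of the falls were still called, those of *Efnb3*, *Epha10*, *Ephb1*, *Ephb2*, *Robo1*, *Robo2* and *Unc5c*. These p-values come from the quasi-likelihood F test of edgeR on all 15 samples with day as a number, adjusted by Benjamini-Hochberg over all genes tested.

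When the time point was fitted as a factor, so that a change in any pattern counts, 9 members were called, against 19.3% of all genes tested. *Efnb3*, *Epha10*, *Ephb1*, *Ephb2*, *Ephb3*, *Robo2* and *Unc5c* were called by both tests, and *Epha4* and *Epha7* by this one alone. Set apart by role, 2 of 12 ligands tested and 8 of 20 receptors fell, and the difference between these shares was not tested. In 6 members, every sample of P14 and P21 lay below every sample of P0 and P4 in CPM (*Efnb3*, *Epha10*, *Ephb1*, *Ephb3*, *Robo2* and *Unc5c*), which is 18.2% of those tested, while the same held for 7.14% of all genes tested. The reverse order was found in 0 members and in 8.24% of all genes.

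**Figure D1:**
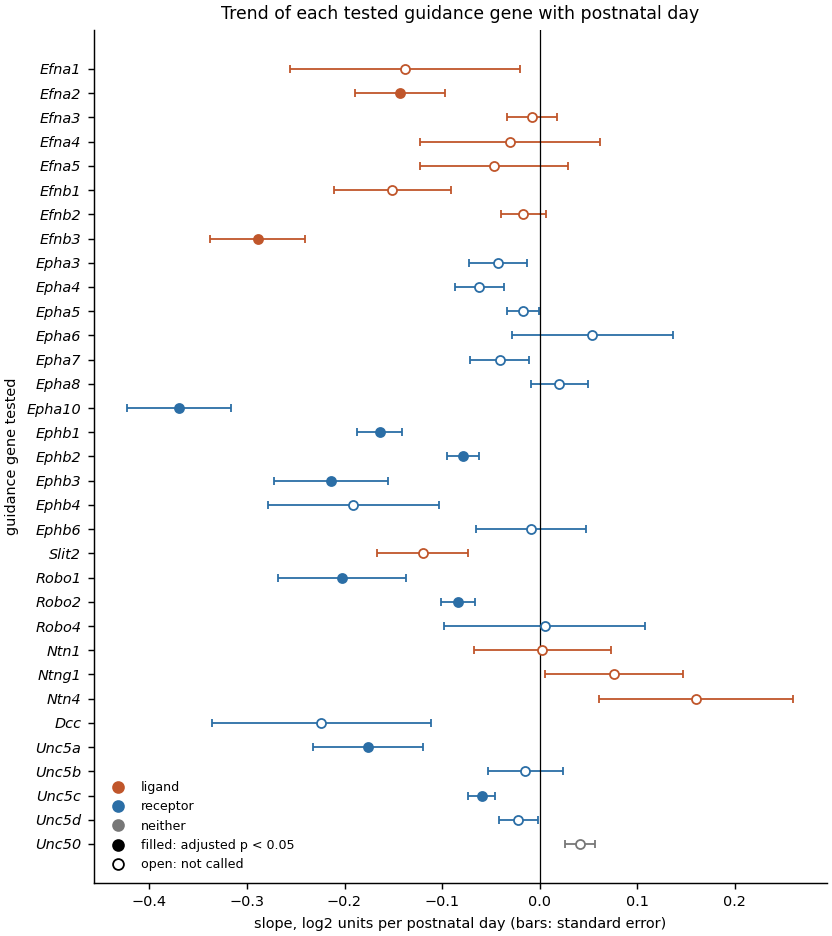
Slope of each of the 33 tested members with postnatal day, in log2 units per day (x axis), with bars for 1 standard error, ligands in orange, receptors in blue and *Unc50*, which is neither, in grey. The 10 filled points have an adjusted p below 0.05 and all lie left of 0.

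Among the ephrin ligands, which are presented here first, the change lay mainly in *Efnb3*. Levels are given as RPKM, the counts per kilobase of exon scaled to the total of reads counted on genes. The tests and CPM used TMM scaling of library sizes instead. With total counts the median slope of all genes was -0.0247 log2 units per day, against -0.00767 with TMM. RPKM values and their family sums, which were not tested, therefore lean towards a fall with age. RPKM allows only a rough comparison of genes of different length. The length takes in all annotated exons, such as 8054 bases in *Epha4*, 9220 in *Unc5d*, 16983 in *Robo2*, 19135 in *Unc5c* and 25433 in *Slit2*. Orders between genes depend on this length. By reads in all, *Robo2* (12075) and *Unc5c* (10804) stood above *Epha4* (9008) and *Unc5d* (7955). Ephrin-B3, the product of *Efnb3* (chromosome 11, 69554092 to 69560205 on GRCm38), is best known as a barrier at the midline of the spinal cord. *Efnb3* stood at 24.9, 40.96 and 28.5 RPKM in the P0 samples, 17.3, 18.6 and 10.8 at P4, 13.9, 5.10 and 8.88 at P8, 1.32, 0 and 0 at P14, and 0.829, 0.396 and 0.538 at P21. The 6 samples of P14 and P21 all lay below the 9 earlier ones, with no overlap. Its slope was -0.289 ± 0.0483 log2 units per day (SE, adjusted p = 1.78e-04 by edgeR).

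The largest single step of *Efnb3* was that from P8 to P14, with a log2 change of -4.18 ± 0.98 (SE, adjusted p = 0.0299 by edgeR). Among all genes, 1.38% fell at this step. This call was lost without P8 replicate 1 (adjusted p = 0.106) or replicate 3 (0.0642) and without P14 replicate 2 (0.0777) or replicate 3 (0.0979), with log2 changes between -3.60 and -4.20, whereas the call over all 5 time points was kept in each of 22 alternative fits. In mean RPKM *Efnb3* was the highest of the 16 ligands over the 15 samples.

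*Efnb2*, another ephrin-B gene, was not called. Its values were 10.4, 5.49 and 2.05 RPKM at P0, 4.71, 5.21 and 5.83 at P4, 6.96, 3.97 and 5.84 at P8, 5.41, 6.04 and 5.68 at P14, and 1.28, 4.62 and 3.56 at P21. In RPKM the P21 samples lay below those of P4 and P14 and overlapped with those of P0 and P8, but in CPM P21 replicate 2 (37.3) was above all P4 samples. Neither its slope (-0.017 ± 0.023 log2 units per day, adjusted p = 0.649 by edgeR) nor the test over time points (adjusted p = 0.855 by edgeR) passed. *Efnb1*, on the X chromosome, went from a mean of 3.53 RPKM at P0 to 0.357 at P21 without passing (adjusted p = 0.0726 for its slope by edgeR).

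Summed over the 3 genes, ephrin-B level went from 40.98 ± 10.1 RPKM at P0 (SD, n = 3) through 24.6 ± 5.90 at P4, 17.1 ± 5.54 at P8 and 7.28 ± 0.301 at P14 to 4.10 ± 0.968 at P21. *Efnb3* made up 76.8% of the sum at P0 and 54.3% at P8. From P14 on the leading gene was *Efnb2*, with 78.5% of the sum at P14 and 77.0% at P21.

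In the ephrin-A group the leading gene at every time point was *Efna3* (chromosome 3, 89313899 to 89322965), with between 47.4% and 86.1% of the summed level. *Efna3* was counted at 4.996, 23.8 and 13.8 RPKM at P0, 8.20, 13.0 and 13.7 at P4, 8.54, 10.04 and 2.92 at P8, 10.1, 3.45 and 3.76 at P14, and 10.002, 14.1 and 7.86 at P21. The P0 samples spread widely, each age overlapped with at least 1 other, and the test did not pass (adjusted p = 0.593 over time points by edgeR). Exons of *Gm15998* lie on the other strand of this locus, and reads of the pair cannot be told apart without strand. *Gm15998* was given 17 reads in all. Reads tallied as ambiguous between genes were left out, and their number at this locus is not known.

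*Efna2* (chromosome 10) was the only ephrin-A gene called. It was measured at 7.21, 1.46 and 7.66 RPKM at P0, 10.2, 1.201 and 3.84 at P4, 4.68, 2.11 and 0.966 at P8, 0.554, 0.856 and 1.18 at P14, and 0.826, 0.0845 and 1.21 at P21. The late values were low in all 6 samples, while replicate 2 of P0 and replicate 2 of P4 were close to them. Its slope of -0.143 ± 0.0464 log2 units per day (adjusted p = 0.0279 by edgeR) lost its call without P0 replicate 1 (adjusted p = 0.0513), P0 replicate 3 (0.0552) or P21 replicate 2 (0.0646), and without all P0 samples (0.0789).

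The other 3 ephrin-A genes were low, with no value above 7.06 RPKM, and did not pass. *Efna1*, also on chromosome 3, was at 0 in all 3 P21 samples and between 1.60 and 3.14 RPKM in those of P14. Set against a floor of 3 counts per library at P21, its P14 mean was at least 6.70-fold higher, yet its spread at earlier ages was wide (0.107 to 6.13 RPKM at P8) and the test over time points gave an adjusted p of 0.148 by edgeR. *Efna4* was at 0 in all P14 samples, and *Efna5* had means between 0.188 and 1.22 RPKM. *Efna4* shares exon positions with *4731419I09Rik* on the other strand (103 reads, against 97 for *Efna4*), so ambiguous reads may be missing from its counts.

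**Figure D2:**
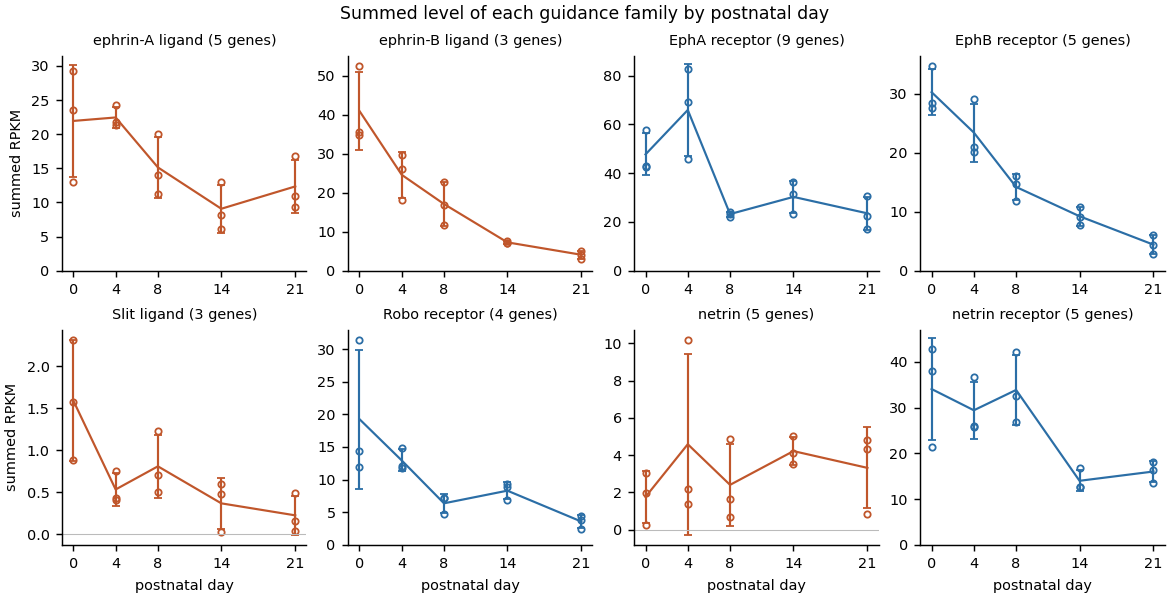
Summed RPKM of each family (y axis) against postnatal day (x axis), with ligand families in orange and receptor families in blue. Open points are the 15 samples, lines join the means of 3 samples and bars are the SD. The ephrin-B and EphB sums go down at every step, the EphA sum is highest at P4, and the Slit sum stays below 2.32 RPKM.

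Among the EphA receptors, *Epha4* and *Epha7* had their highest mean level at P4. EphA4 binds ephrins of both classes and is known for repulsion of corticospinal axons at the midline, and EphA7 is an ephrin-A receptor. The 250 bases upstream of the annotated starts of this pair are shown because both genes had a called fall from P4 to P8, with each GGGCGG motif (the GC box, either strand) in capitals. Both are from RefSeq on GRCm38.p6 and read 5′ to 3′ on the strand of the gene, for *Epha4* chr1:77515089-77515338 on the minus strand and for *Epha7* chr4:28812881-28813130 on the plus strand.
Epha4: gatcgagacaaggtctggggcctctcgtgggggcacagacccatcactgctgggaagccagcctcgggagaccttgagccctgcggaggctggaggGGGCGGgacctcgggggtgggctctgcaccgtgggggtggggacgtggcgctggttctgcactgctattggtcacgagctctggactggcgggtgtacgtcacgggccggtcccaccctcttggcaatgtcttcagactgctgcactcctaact
Epha7: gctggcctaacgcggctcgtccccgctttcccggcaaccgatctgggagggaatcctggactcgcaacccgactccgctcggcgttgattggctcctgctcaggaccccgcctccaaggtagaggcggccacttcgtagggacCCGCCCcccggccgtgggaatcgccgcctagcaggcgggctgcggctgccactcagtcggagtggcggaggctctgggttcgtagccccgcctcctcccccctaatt

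Each of these windows held 1 GC box, on the strand of the gene in *Epha4* and on the other strand in *Epha7*, and both were rich in G and C (66.0% and 69.2%). Over the guidance genes, 41 upstream windows of 36 genes were found in the RefSeq table. A GC box was present in 28 of these 41 windows (68.3%) and in 44.6% of the 19805 windows of all protein-coding genes. The guidance windows were also richer in G and C, with a median of 64.4% against 56.4% over all windows. Whether the GC box was in excess beyond this was not tested. In the windows of members called by either test the GC box was present in 7 of 14, or in 6 of 11 genes, since some genes had several windows. *Efnb3* had no window in the RefSeq table. The nuclear receptor half-site AGGTCA, searched on both strands, was present in 4 of the 41 windows and 12.6% of all.

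*Epha4* (chromosome 1, 77367185 to 77515088) was measured at 13.8, 29.0 and 19.0 RPKM at P0, 33.4, 15.6 and 36.0 at P4, 6.74, 2.96 and 7.13 at P8, 12.3, 9.63 and 8.003 at P14, and 4.41, 8.83 and 11.1 at P21. On this scale the 6 samples of P0 and P4 lay above the 9 later ones, whereas in CPM with TMM library sizes P0 replicate 1 (100.2) lay just below P21 replicate 3 (100.24) and below P14 replicate 1 (107.7). Between P4 and P8 it fell by 2.31 on the log2 scale (SE 0.421, adjusted p = 0.0107 by edgeR), 4.95-fold lower at P8, while 0.252% of all genes fell at this step. This call was lost without P8 replicate 2 (log2 change -2.02, adjusted p = 0.0575). The slope over all ages did not pass (adjusted p = 0.0784 by edgeR). In mean RPKM *Epha4* was the highest of all 23 receptors, whereas *Robo2* and *Unc5c* had more reads in all.

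In *Epha7* (chromosome 4, 28813131 to 28967499) values were 5.25, 6.92 and 2.52 RPKM at P0, 20.5, 9.28 and 20.5 at P4, 4.10, 4.21 and 3.07 at P8, 6.21, 5.004 and 5.40 at P14, and 3.18, 3.13 and 6.48 at P21. All 3 samples of P4 were above the other 12. The P14 samples lay above those of P8, and both overlapped with P0 and P21. From P0 to P4 *Epha7* rose by 1.85 ± 0.40 log2 units (SE, adjusted p = 0.0254 by edgeR), or 3.61-fold, against 1.74% of all genes rising at this step. From P4 to P8 it fell by 2.11 on the log2 scale (SE 0.406, adjusted p = 0.0164 by edgeR).

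Calls of both *Epha7* steps rested on few samples. The rise was lost without P0 replicate 1 (adjusted p = 0.0676) or replicate 3 (0.0771), without P4 replicate 1 (0.105) or replicate 3 (0.0752), and in the fit with a replicate block (0.0563). The fall was lost without P4 replicate 1 (adjusted p = 0.0601) or replicate 3 (0.0669) and without P8 replicate 1 (0.0676), replicate 2 (0.0590) or replicate 3 (0.0997). In these fits the rise was between 1.505 and 1.88 log2 units and the fall between 1.97 and 2.22. The test over all time points held for *Epha7* in all of its 22 alternative fits. Among the marker lists, those of oligodendrocyte progenitors and meninges also had their highest mean at P4, and their part in *Epha7* was not tested. The progenitor list had 69.9 CPM (39.2 to 119.2 in single samples) against 15.2 to 36.9 at the other ages. The meninges list had 67.4 CPM (5.30 to 169.0) against 15.1 to 45.2. No gene of either list was called by the slope test, and *Olig2* was highest at P8.

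*Epha10* (chromosome 4) encodes a receptor whose kinase domain is inactive, and it had the steepest fall of all members. Its values were 7.996, 8.04 and 4.79 RPKM at P0, 8.13, 5.10 and 1.44 at P4, 1.03, 1.60 and 1.9997 at P8, 0, 0.279 and 0.0249 at P14, and 0, 0.0250 and 0.0991 at P21. The samples of P14 and P21 stood apart from all earlier ones, near the limit of detection. The slope was -0.370 ± 0.0531 log2 units per day (adjusted p = 3.72e-05 by edgeR). No single step of *Epha10* passed, but that from P8 to P14 was called as falling with DESeq2 and without P14 replicate 2.

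The other EphA genes tested were *Epha3*, *Epha5*, *Epha6* and *Epha8*, and none passed in the edgeR fit without a block. *Epha5* and *Epha8* were expressed in all samples, *Epha5* between 2.51 and 9.67 RPKM and *Epha8* between 1.93 and 10.6. *Epha6* was at 0 in all P4 samples and at a mean of 1.62 RPKM at P14, which is at least 14.9-fold higher than at P4 (floor of 3 counts per library), with an adjusted p of 0.0938 over time points by edgeR. This test called *Epha6* with limma-voom, with DESeq2 and with a replicate block (adjusted p = 0.0311 by edgeR). *Epha1* and *Epha2* had reads in 1 sample each and were not tested. *Epha1* shares exon positions with *Zyx* on the other strand (1748 reads), so ambiguous reads may be missing from its counts. Together the 9 genes summed to 47.7 ± 8.58 RPKM at P0 (SD, n = 3) and 65.9 ± 18.7 at P4. From P8 on the sum was lower, at 23.2 ± 1.03, 30.3 ± 6.51 and 23.5 ± 6.90 for P8, P14 and P21.

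The EphB receptors, the kinases that ephrin-Bs bind, included 3 of 5 genes that fell, while 14.1% of all genes tested fell, and no test was made of the family. *Ephb1* (chromosome 9, 101922128 to 102354693) was at 10.7, 8.62 and 14.5 RPKM at P0, 10.7, 13.3 and 10.1 at P4, 5.48, 5.06 and 6.92 at P8, 3.20, 3.57 and 3.36 at P14, and 1.63, 0.540 and 0.408 at P21. P0 and P4 overlapped, and from P4 on each age lay wholly below the one before it. The slope was -0.164 ± 0.0232 log2 units per day (adjusted p = 3.11e-05 by edgeR), the smallest adjusted p among the members. *Gm26846*, on the other strand, shares exon positions with *Ephb1* and was given 164 reads over all samples, against 3567 for *Ephb1*. Ambiguous reads of this pair were left out, and their number is not known.

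*Ephb2* (chromosome 4) encodes the receptor that, with EphB1, is known for roles at excitatory synapses. It was at 7.83, 11.2 and 7.65 RPKM at P0, 6.46, 2.96 and 7.03 at P4, 5.70, 5.66 and 6.26 at P8, 4.20, 4.63 and 4.63 at P14, and 1.09, 1.97 and 2.26 at P21. Every P21 sample lay below all others and every P0 sample above them, with replicate 2 of P4 low among the samples in between. Its slope of -0.0783 ± 0.0167 log2 units per day passed with an adjusted p of 0.00162 by edgeR.

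*Ephb3* (chromosome 16) was lower, at 1.77, 7.72 and 5.09 RPKM at P0, 3.24, 1.71 and 1.65 at P4, 1.44, 0.236 and 0.366 at P8, 0.178, 0.0824 and 0 at P14, and 0, 0 and 0.623 at P21. The late samples were at or near 0. The slope was -0.214 ± 0.0582 log2 units per day (adjusted p = 0.0100 by edgeR), and the call was lost when the P0 samples were left out (adjusted p = 0.119). Over the time points its adjusted p was 0.04996, which held in 8 of 22 alternative fits.

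*Ephb4*, a receptor of vascular endothelium, and *Ephb6*, which like EphA10 lacks kinase activity, did not pass. In *Ephb4* 1 sample carried most of the P0 level, with 11.8 RPKM in replicate 1, 0 in replicate 2 and 0.293 in replicate 3. *Ephb6* was between 0 and 5.17 RPKM with no order by age. The EphB sum went from 30.3 ± 3.94 RPKM at P0 (SD, n = 3) to 23.4 ± 4.91, 14.2 ± 2.19, 9.25 ± 1.59 and 4.42 ± 1.61 at P4, P8, P14 and P21. *Ephb1* was the leading gene at P0 and P4 and *Ephb2* from P8 on.

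**Figure D3:**
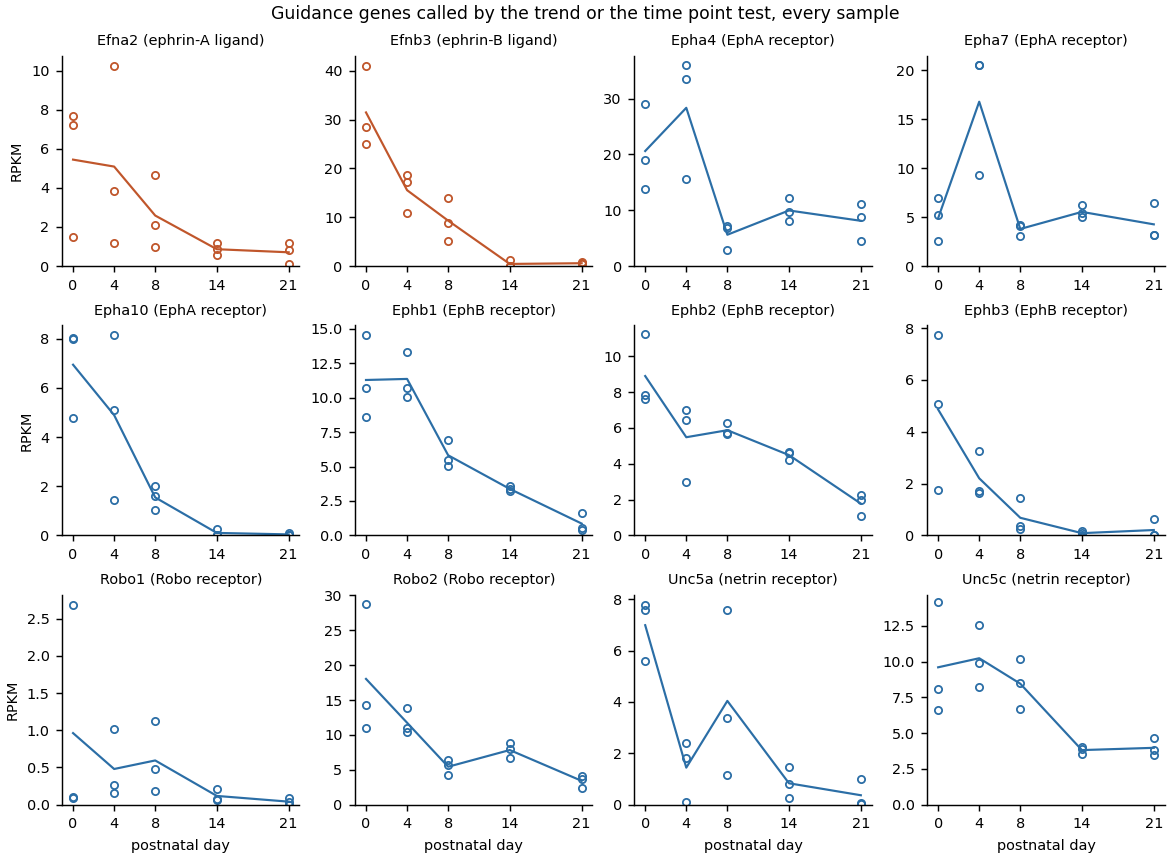
RPKM (y axis, from 0, scaled for each gene) against postnatal day (x axis) for the 12 members called by either test, ligands in orange and receptors in blue. Open points are the 15 samples and lines join the means of 3 samples. *Epha4* and *Epha7* are highest at P4, while *Efnb3* and *Epha10* are near 0 in all samples of P14 and P21.

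Slit genes were low per length in these samples, and *Robo2* was among the 3 receptors with the highest mean level. *Slit2*, with 1032 reads in all, was the only Slit gene tested, and it had a mean of 1.39 RPKM at P0 and 0.195 at P21 (slope -0.120 ± 0.0467 log2 units per day, adjusted p = 0.0673 by edgeR). *Slit1* had reads in 2 samples and *Slit3* in 10, neither reaching 0.575 RPKM. The 3 genes together summed to at most 2.32 RPKM in any sample.

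*Robo2* (chromosome 16, 73891839 to 74411825) was measured at 11.005, 28.8 and 14.3 RPKM at P0, 11.05, 10.4 and 13.8 at P4, 5.76, 6.35 and 4.23 at P8, 8.89, 6.71 and 7.93 at P14, and 4.11, 2.42 and 3.74 at P21. All samples of P0 and P4 lay above all later ones, and P14 was above P8. P21 was lowest in RPKM, whereas in CPM P21 replicate 1 (79.4) and replicate 3 (71.3) were above P8 replicate 3 (69.4). Its slope was -0.0834 ± 0.0175 log2 units per day (adjusted p = 0.00145 by edgeR), and no single step passed. The step of *Robo2* from P4 to P8 was called as falling with DESeq2, without all P0 samples and without P0 replicate 2. *Robo2* made up between 85.7% and 96.3% of the summed Robo level at each age.

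*Robo1*, on the same chromosome as *Robo2*, was far lower per length. It stood at 0.103, 2.69 and 0.0962 RPKM at P0, 1.02, 0.263 and 0.158 at P4, 1.12, 0.190 and 0.476 at P8, 0.0817, 0.0663 and 0.207 at P14, and 0.0888, 0 and 0.0346 at P21. The P0 mean rested on replicate 2. The slope of -0.203 ± 0.0652 log2 units per day (adjusted p = 0.0270 by edgeR) lost its call without that sample (-0.158, adjusted p = 0.191), without P21 replicate 2 (0.0564) or replicate 3 (0.0656), in the fit with a replicate block (0.0530), with limma-voom (0.137) and on log2(day + 1) (0.114).

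*Robo3*, the receptor that delays Slit repulsion in commissural axons, was at 0 in all samples of P0, P14 and P21 and was not tested. Its reads came from 3 samples, with 1.196 RPKM in P4 replicate 2, 0.895 in P4 replicate 3 and 0.0286 in P8 replicate 2. *Robo4*, an endothelial receptor, reached at most 0.805 RPKM and did not pass.

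Netrin ligands were low at every age, and none passed a test in the main edgeR fit. *Ntn1* had means between 0.651 RPKM at P0 and 3.66 at P4, where 1 sample reached 9.13 and the others 0.917 and 0.947. *Ntng1*, which encodes a lipid-anchored netrin-G, and *Ntn4* had positive slopes of 0.0762 ± 0.0705 and 0.161 ± 0.0994 log2 units per day (adjusted p = 0.475 and 0.262 by edgeR). *Ntng1* was at 0, 2.41 and 0 RPKM at P0 and between 0.634 and 2.17 in the samples of P14 and P21. It was called as rising with limma-voom, and over the time points without P0 replicate 2. *Ntng2* and *Ntn5* were not tested, with 42 and 4 reads in all. *Ntng2* shares exon positions with *6530402F18Rik* on the same strand (273 reads), and *Ntn5* with *Sec1* on the other strand (114 reads). Since ambiguous reads were left out, these low counts do not show absence.

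Among the receptors of netrin, *Unc5a* and *Unc5c* fell. *Unc5d* had the highest mean RPKM, whereas *Unc5c* had more reads in all (10804 against 7955). *Unc5c* (chromosome 3, 141465216 to 141834924) was at 6.59, 14.2 and 8.09 RPKM at P0, 8.23, 9.93 and 12.6 at P4, 10.2, 6.71 and 8.48 at P8, 3.55, 3.87 and 4.03 at P14, and 3.48, 3.80 and 4.65 at P21. The samples fell into a higher set up to P8 and a lower set from P14, with no overlap. Its slope was -0.0594 ± 0.0140 log2 units per day (adjusted p = 0.00358 by edgeR), the shallowest of the 10 falls. The step of *Unc5c* from P8 to P14 did not pass. It was called as falling with total counts, with DESeq2, without all P0 samples and without P0 replicate 1 or 2. *Gm15688*, on the other strand, shares exon positions with *Unc5c* and was given 63 reads, against 10804 for *Unc5c*. Here too the number of ambiguous reads is not known.

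*Unc5a* (chromosome 13) was at 5.58, 7.59 and 7.78 RPKM at P0, 1.83, 0.0921 and 2.41 at P4, 3.36, 1.17 and 7.59 at P8, 1.46, 0.788 and 0.258 at P14, and 0.985, 0.0864 and 0.0342 at P21. P0 was high in all 3 samples, and P8 ranged from the level of P14 to that of P0. The slope was -0.176 ± 0.0562 log2 units per day (adjusted p = 0.0256 by edgeR). This call was lost without P21 replicate 2 (adjusted p = 0.0660), P21 replicate 3 (0.0587) or all P0 samples (0.215).

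*Unc5d* (chromosome 8) did not pass either test (adjusted p = 0.121 over time points by edgeR). The test over time points called *Unc5d* with DESeq2, without all P0 samples and without P0 replicate 1. Its step from P8 to P14 was called as falling with total counts, with DESeq2, without all P0 samples and without P0 replicate 1 or 3. Its values were 4.58, 15.5 and 20.96 RPKM at P0, 10.3, 14.5 and 12.4 at P4, 14.3, 15.4 and 14.995 at P8, 5.34, 5.66 and 4.11 at P14, and 10.3, 11.4 and 7.12 at P21. The P14 samples lay below all of P4, P8 and P21, with 1 sample of P0 at the level of P14. *Unc5b* ranged from 0.605 to 10.2 RPKM without an order by age.

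*Dcc*, the receptor through which netrin-1 attracts axons, had reads in 9 of 15 samples, between 0 and 2.83 RPKM, and its slope of -0.224 ± 0.112 log2 units per day did not pass (adjusted p = 0.157 by edgeR). Its level at each of P0, P4 and P8 came almost wholly from replicate 3, with 2.34, 2.83 and 0.909 RPKM. Summed over the 5 receptors of netrin, the level was 34.1 ± 11.2 RPKM at P0 (SD, n = 3), 29.4 ± 6.24 at P4 and 33.9 ± 7.74 at P8. It was 13.99 ± 2.33 RPKM at P14 and 16.02 ± 2.33 at P21. *Unc5d* was the leading gene at each age. *Unc50*, which belongs to no guidance family, was between 24.6 and 60.3 RPKM, and *Unc5cl* had no read in any sample.

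Over the 4 steps between neighbouring ages, 4 changes were called in members, and they are those given above for *Epha7*, *Epha4* and *Efnb3*. No member fell from P0 to P4 (2 at an unadjusted p below 0.05 by edgeR), where 0.231% of all genes fell. No member rose from P4 to P8 (2 at an unadjusted p below 0.05) or from P8 to P14 (3), where 0.882% and 1.29% of all genes rose. At the last step, from P14 to P21, edgeR called 0 members in either direction, with 4 falling and 1 rising at an unadjusted p below 0.05, and 0.266% of all genes fell and 0.063% rose there. DESeq2 called *Ephb1* falling at this step, as did edgeR without P21 replicate 1. Without P14 replicate 1, edgeR called *Efnb3* rising there. From P0 to P4, DESeq2 called *Epha6* falling. The plot of step changes gives the size of each.

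**Figure D4:**
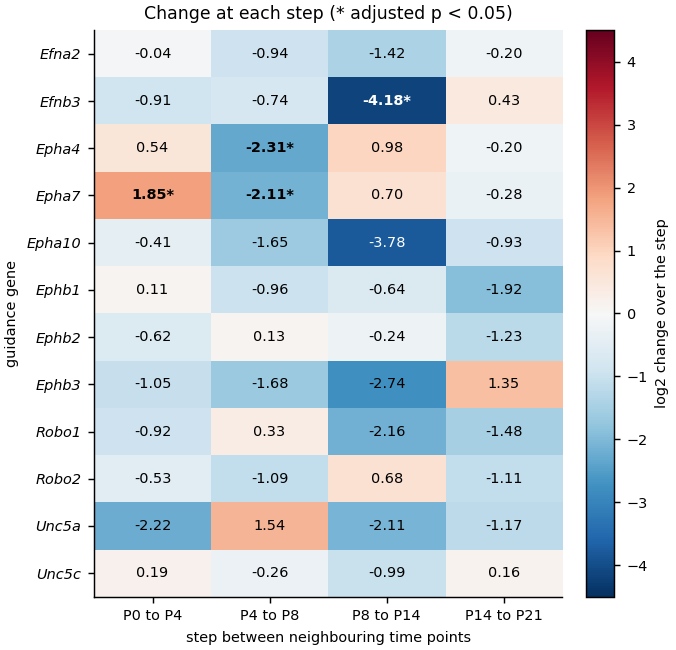
Log2 change at each of the 4 steps between neighbouring time points (columns) for the 12 members called by either test (rows), with blue for lower and red for higher at the later age. Asterisks mark the 4 called steps, of which 1 is a rise (*Epha7*, P0 to P4) and 3 are falls.

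In order of mean level over the 15 samples, the receptors *Epha4*, *Unc5d* and *Robo2* stood at 14.5, 11.1 and 9.30 RPKM and the ligands *Efnb3*, *Efna3* and *Efnb2* at 11.5, 9.88 and 5.14. The spread between samples was wide enough that neighbours in this order overlapped. At P21, *Efna3* with 10.6 ± 3.14 RPKM (SD, n = 3), *Unc5d* with 9.60 ± 2.22 and *Epha4* with 8.11 ± 3.401 had the highest means among ligands and receptors, and their ranges overlapped.

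Genes for proteins that act beneath these receptors or bind beside the ligands went in both directions. A list of 51 such genes was drawn up with earlier results of these data known, so its shares only describe it. All 51 passed the filter, 6 fell (11.8%) and 9 rose (17.6%). Among all genes 14.1% fell and 12.1% rose, and the difference from the list was not tested. The median slope of the list was -0.00886 log2 units per day. Without the P0 samples 3 of the list fell. In the list for Eph signalling 1 of 20 fell and 4 rose, in that for Slit and Robo 2 of 12 fell and 2 rose, and in that for netrin 3 of 19 fell and 3 rose.

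Of those that rose, *Chn1*, which encodes the chimaerin that acts on Rac below EphA4, went from 21.3 ± 13.1 CPM at P0 (SD, n = 3) to 594.4 ± 78.1 at P21 (slope 0.230 log2 units per day, adjusted p = 1.65e-05 by edgeR). *Nell2*, a ligand of Robo3, went from 129.2 ± 70.8 to 595.5 ± 64.1 CPM (slope 0.105, adjusted p = 1.90e-05 by edgeR). *Ablim1*, an actin-binding protein, and *Trim9*, a ubiquitin ligase that binds DCC, had slopes of 0.0713 and 0.259 (adjusted p = 9.96e-05 and 1.48e-04 by edgeR). *Chn2*, *Kalrn*, *Sdcbp*, *Srgap2* and *Ptk2* made up the rest of those that rose.

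The steepest of the falling genes was *Dapk1*, a kinase that binds UNC5 receptors, which went from 143.0 ± 16.7 CPM at P0 (SD, n = 3) to 2.54 ± 1.11 at P21 (slope -0.301 log2 units per day, adjusted p = 5.80e-07 by edgeR). *Neo1*, which encodes neogenin, a receptor related to DCC, went from 114.3 ± 33.8 to 17.5 ± 10.2 CPM (slope -0.121, adjusted p = 8.10e-05 by edgeR). *Arhgef15*, whose product is bound by Eph receptors, and *Gpc1*, a glypican that binds Slits, had slopes of -0.116 and -0.0709 (adjusted p = 0.00218 and 0.00324 by edgeR). *Enah* and *Flrt2* also fell.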

How the data were processed

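The authors trimmed reads with cutadapt 1.2.1, aligned them to GRCm38 with GSNAP, kept uniquely mapping reads and counted them per gene with HTSeq 0.5.3p9 in its strict intersection mode. The values the authors deposited are these whole-number counts, 1 library per sample, with no normalization; the annotation release used for counting is not given in the sources used here. Of the reads tallied per sample, 18.2% to 31.0% lay outside genes or were ambiguous, and these tallies were left out. A gene with no count lies below 3 counts, or 0.384 to 0.880 CPM, and such floors cover counting error only.

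Time points and replicate numbers came from the labels. Genes were named and their exon lengths summed from GENCODE M21, and 36639 of 38561 identifiers matched. RPKM used total counts on genes, and CPM used TMM library sizes. Trends and changes were tested by quasi-likelihood in edgeR 4.0.16 (R 4.3.3) with TMM, filterByExpr by time point and Benjamini-Hochberg adjustment at 0.05 over 14293 genes, fitted on all 15 samples. Scripts were tested on simulated counts. Alternatives were RLE scaling, total counts, DESeq2 1.42.0, limma-voom (limma 3.58.1), no filter, a replicate block, log2(day + 1), no P0 samples (for the test over time points and the steps, chosen after seeing the data) and leaving out each sample. Tables and plots used Python 3.11.15 with numpy 2.4.6, pandas 2.3.3 and matplotlib 3.10.9. Members and lists were chosen with earlier results of these data known. Every sample's value is given for members called by either test and for the 3 ligands and 3 receptors with the highest mean RPKM, others are given by range and count, and from the list of signalling genes the 4 rising and 4 falling with the smallest adjusted p are described.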

Additional observations from a re-analysis of the deposited data

How the results depend on the processing

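The falls of *Efnb3*, *Epha10*, *Ephb1*, *Ephb2*, *Robo2* and *Unc5c* with day were called in all 23 alternatives. The number of members falling was 10 with RLE scaling, 13 with total counts or DESeq2 (adding *Efnb1*, *Epha4* and *Slit2*), 10 with limma-voom (*Slit2* in place of *Robo1*), 12 without a filter, 7 with log2(day + 1) and 7 without P0, and 8 to 12 when single samples were left out. With limma-voom 1 member (*Ntng1*) rose, and 0 to 1 rose with single samples left out. Members called over the time points numbered 8 to 10 with single samples left out. Total counts moved the median slope of all genes from -0.00767 to -0.0247 log2 units per day. Falling steps numbered 5 with total counts, 9 with DESeq2, 6 without P0 and 1 to 5 with single samples left out. Rising steps numbered 0 without P0, where the first step is missing, and 0 to 2 with single samples left out. Of the signalling list, 13 fell with total counts and 3 without P0, and 4 to 8 fell and 8 to 10 rose with single samples left out. Over 624 refits of single genes 573 kept their direction and side of the threshold, 45 lost and 6 gained the call, and 0 turned direction. Except where a sample was left out or the construction shows it, the cause was not tested.

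Replicate numbers did not pair the samples. Deviations from the group means correlated at -0.00355 on average in same-numbered samples and 0.00178 in others, and 5 of 15 samples correlated best with their own number. With the replicate block 10 members fell (*Slit2* in place of *Robo1*), 1 rose (*Unc50*), and 0 steps rose. Over the time points the block called 9, with *Epha6* in place of *Ephb3*. Each time point has 3 samples and the common biological coefficient of variation was 0.757, which limits what single steps can show.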
